A study of Mus musculus with 4 samples.

Results

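The immune and macrophage genes of whole mouse lung were examined at embryonic day 16.5 (E16.5). They comprised 40 symbols chosen by name as general leukocyte, macrophage, granulocyte, mast cell and lymphoid genes, together with chemokines, colony-stimulating factor genes and Pf4. A total of 39 of the 40 were found among the 22556 genes of the expression table. Spi1 was absent under that symbol. There were 2 libraries of each of 2 genotypes: Control 1 and Control 2, and Shh-Stk11 1 and Shh-Stk11 2. Control embryos were Shh-Cre; Stk11F/+, with an intact Stk11 copy beside the floxed one. Shh-Stk11 embryos were Shh-Cre; Stk11F/F, so all 4 libraries came from lungs with the Cre driver. STK11 is a serine/threonine kinase that activates AMPK and related kinases, and the Shh-Cre driver acts in the endodermal progenitors of lung epithelium. Leukocytes do not descend from these progenitors, so the allele was not targeted in the cells that express most of these genes. The labels gave C57BL/6 as the strain, but the study's methods spoke of mixed backgrounds. Nothing in the labels said whether a library was made from 1 lung or several.

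Macrophages enter the lung before birth in waves, from yolk sac and then from fetal liver precursors, and depend on the receptor CSF1R and its ligands CSF1 and IL-34. Fetal monocytes carry CCR2 and later give rise to alveolar macrophages, whereas tissue macrophages of the fetal interstitium carry CX3CR1, the mannose receptor MRC1 and large amounts of the complement component C1q. Much of the myeloid program is driven by PU.1, the product of Spi1, an ETS factor that binds purine-rich sites with a GGAA core.

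The windows around the start sites of these genes were read from RefSeq (GRCm38.p6), from 250 bases before to 50 bases after each start. Windows were held for 30 of the 39 genes, 34 windows in all. The letters GAGGAA, a form of the PU-box core, were searched on both strands, and stood in 21 of the 34 windows (61.8%) against 28.3% of 32851 windows of all genes. At least 1 match was found for 19 of the 30 genes. As a comparison, the letters TATAA on either strand, which cannot overlap GAGGAA, stood in 29.4% of these windows and in 24.9% of all. Ptprc had a second window, chr1:138175077-138175376, from another start site, without a match. A match describes the letters and is not evidence of binding. The windows of Ptprc and Mrc1, which had the largest positive differences between genotypes at an unadjusted p under 0.05, and of C1qb and C1qc, which are neighbouring genes that kept similar ratios in all 4 libraries, are shown with each match in capitals (GAGGAA, or TTCCTC where it lies on the reverse strand). Each is written 5′ to 3′ on the strand of its gene.
Ptprc, chr1:138175256-138175555, minus strand: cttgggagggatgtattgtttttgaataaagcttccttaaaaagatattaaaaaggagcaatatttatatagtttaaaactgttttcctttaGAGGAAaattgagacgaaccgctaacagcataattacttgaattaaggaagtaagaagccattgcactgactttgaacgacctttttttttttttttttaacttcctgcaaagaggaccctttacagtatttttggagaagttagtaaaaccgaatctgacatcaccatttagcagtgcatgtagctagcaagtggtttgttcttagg
Mrc1, chr2:14229164-14229463, plus strand: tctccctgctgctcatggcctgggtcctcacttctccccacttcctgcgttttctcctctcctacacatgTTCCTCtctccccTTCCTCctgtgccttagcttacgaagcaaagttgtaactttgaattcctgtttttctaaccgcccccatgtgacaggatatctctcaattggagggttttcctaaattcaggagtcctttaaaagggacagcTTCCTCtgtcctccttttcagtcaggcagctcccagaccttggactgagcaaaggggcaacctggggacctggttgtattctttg
C1qb, chr4:136886151-136886450, minus strand: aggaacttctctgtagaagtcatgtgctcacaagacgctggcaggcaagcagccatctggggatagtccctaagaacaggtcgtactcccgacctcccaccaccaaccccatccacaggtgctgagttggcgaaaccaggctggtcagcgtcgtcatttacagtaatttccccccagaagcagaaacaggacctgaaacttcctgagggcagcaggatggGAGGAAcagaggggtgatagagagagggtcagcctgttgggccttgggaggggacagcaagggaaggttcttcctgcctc
C1qc, chr4:136892865-136893164, minus strand: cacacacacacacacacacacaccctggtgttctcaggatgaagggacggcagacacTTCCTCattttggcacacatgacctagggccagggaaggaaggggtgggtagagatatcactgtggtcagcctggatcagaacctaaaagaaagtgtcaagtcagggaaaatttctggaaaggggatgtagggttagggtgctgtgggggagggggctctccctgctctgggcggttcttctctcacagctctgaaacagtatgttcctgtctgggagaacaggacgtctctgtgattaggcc
The Ptprc match began 158 bases before the start site. Mrc1 had 3 matches, all on the reverse strand, which began 180, 167 and 35 bases before the start. The C1qb match began 30 bases before the start and the C1qc match, on the reverse strand, 193 bases before it.

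Values are FPKM, reads divided by transcript length and by the mapped reads of the library, so levels are roughly comparable between genes and libraries. The main comparison added no scaling between libraries, whose FPKM sums ran from 514930 (Shh-Stk11 1) to 628145 (Control 2). Reads per library, recovered from the lowest values, numbered 30.9 to 38.1 M. Stk11, the deleted gene, was at 43.99, 45.5, 29.5 and 25.95 FPKM in Control 1, Control 2, Shh-Stk11 1 and Shh-Stk11 2, an order kept for all values below (log2 fold change -0.69, adjusted p = 0.0499 in limma, and past the threshold in 2 of 14 other settings). The libraries were not matched for sex. Ddx3y, on the Y chromosome, reached 23.5 FPKM in Shh-Stk11 2 and no more than 0.0285 FPKM in the other libraries, and Xist was at 65.1 to 169 FPKM in those libraries and at 0.239 FPKM in Shh-Stk11 2. Sex and library therefore cannot be told apart for Shh-Stk11 2. In whole-organ RNA, fewer cells of a type and less RNA per cell cannot be told apart either.

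The immune genes spanned a wide range of levels. Averaged over the 4 libraries, 17 of the 39 genes were at 10 FPKM or more, 15 between 1 and 10 FPKM, 1 (Ccl3) between 0.5 and 1 FPKM and 6 below 0.5 FPKM. The most abundant was Lyz2, the myeloid lysozyme, at 304, 268, 174 and 352 FPKM. Type 2 epithelial cells of the lung also make lysozyme, and their marker Sftpc, which encodes surfactant protein C, was at 17426, 15784, 8005 and 12048 FPKM. Lyz2 and Sftpc were both lowest in Shh-Stk11 1. Sftpb, another surfactant gene of these cells, was at 523, 426, 593 and 666 FPKM, highest in Shh-Stk11 2 as was Lyz2. Of the 7 lung epithelium markers, 6 had a log2 fold change above 0 (median 0.21, 0 called), Sftpc being the exception, and the part of epithelial cells in the Lyz2 values was not tested. The near-identical gene Lyz1 was at 179, 71.0, 30.1 and 56.1 FPKM. The treatment of reads shared by such copies was not given in the sources used here, so the split between Lyz2 and Lyz1 is uncertain.

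**Figure D1:**
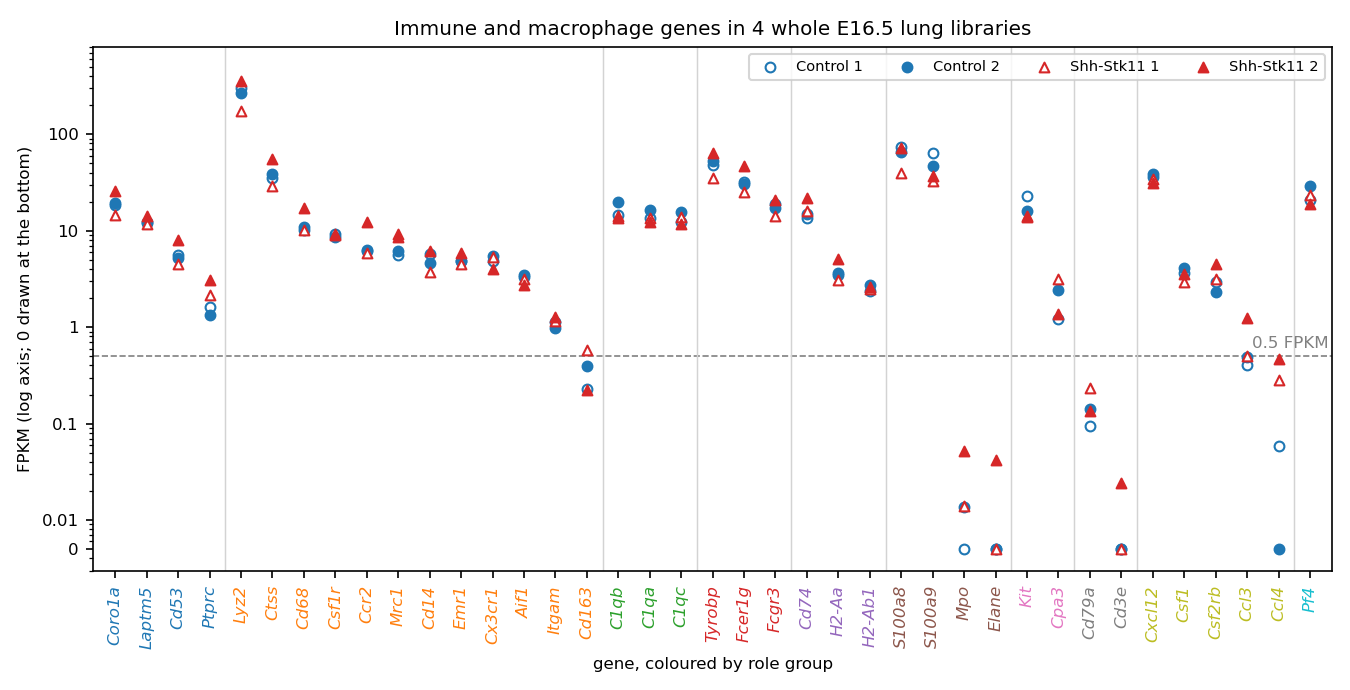
Level of the 39 immune and macrophage genes in each of the 4 libraries, in FPKM on a log axis with 0 drawn at the bottom. Genes are grouped and coloured by role (from left: pan-leukocyte, macrophage and monocyte, C1q, Fc receptor and ITAM adaptors, MHC class II, granulocyte, mast cell, lymphoid, chemokines and CSF1, Pf4), circles are Control, triangles are Shh-Stk11, and the dashed line is the 0.5 FPKM minimum for testing. Lyz2 stands at the top with 174 to 352 FPKM, and Mpo, Elane, Cd3e and Cd79a lie below 0.5 FPKM in every library.

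Among genes of tissue macrophages, Csf1r, the receptor for CSF1 and IL-34, was at 9.32, 8.55, 9.14 and 9.11 FPKM, and Emr1, an adhesion receptor used as a macrophage marker, at 4.89, 4.82, 4.52 and 5.91 FPKM. The labelled tissue thus held macrophage transcripts in all 4 libraries. The 3 transcripts of the C1q complex were each above 11 FPKM throughout. Both lymphoid genes were near the limit of detection. Cd3e, a chain of the T cell receptor complex, was listed at 0 in 3 libraries and at 0.0245 FPKM in Shh-Stk11 2, and Cd79a, a chain of the B cell receptor complex, was between 0.0937 and 0.231 FPKM, which corresponded to 4.46 to 8.91 estimated reads. Mpo and Elane, granule enzyme genes of early neutrophils, were as low. Mpo was at 0 to 0.0514 FPKM (at most 4.35 estimated reads) and Elane was listed at 0 in 3 libraries (1.09 estimated reads in Shh-Stk11 2). In contrast, S100a8 and S100a9, which encode the calprotectin subunits of mature neutrophils and monocytes, were at 32.9 to 74.3 FPKM.

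To ask whether loss of epithelial STK11 went with a change in the immune genes of the organ, Shh-Stk11 was compared with Control by limma on log2(FPKM + 0.1), over the 13770 genes whose mean reached 0.5 FPKM. Log2 fold changes below are on this scale, which understates the difference of low genes. Of the 39 immune genes, 33 passed this minimum, and Cd163, Mpo, Elane, Cd3e, Cd79a and Ccl4 did not. None of the 33 passed an adjusted p of 0.05, against 2.27% of all genes tested (135 higher, 0.98%, and 178 lower, 1.29%). At an unadjusted p under 0.05 stood 4 of the 33 (12.1%), against 15.2% of all genes. These were Ptprc and Mrc1, with higher values in Shh-Stk11, and S100a9 and Kit, with lower values. The median log2 fold change was 0.03 over the 33 genes, 18 of them above 0 and 15 below, and -0.05 over all genes. The genotypes did not overlap for 12 of the 33 (36.4%), 6 with both Shh-Stk11 libraries above both Control libraries and 6 with both below, against 46.8% of all genes (19.2% above and 27.6% below).

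The precision of this comparison was limited by 2 libraries per genotype. The 95% interval of the log2 fold change excluded a 2-fold difference in either direction for 26 of the 33 genes. It reached a 2-fold higher value for 5 genes and a 2-fold lower value for 2. The narrowest interval was that of Cxcl12 and the widest that of Cpa3. With 2 libraries on each side, 0.333 is the smallest two-sided p that an exact permutation test allows, and the p-values therefore rest on variance that limma shares across genes.

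**Figure D2:**
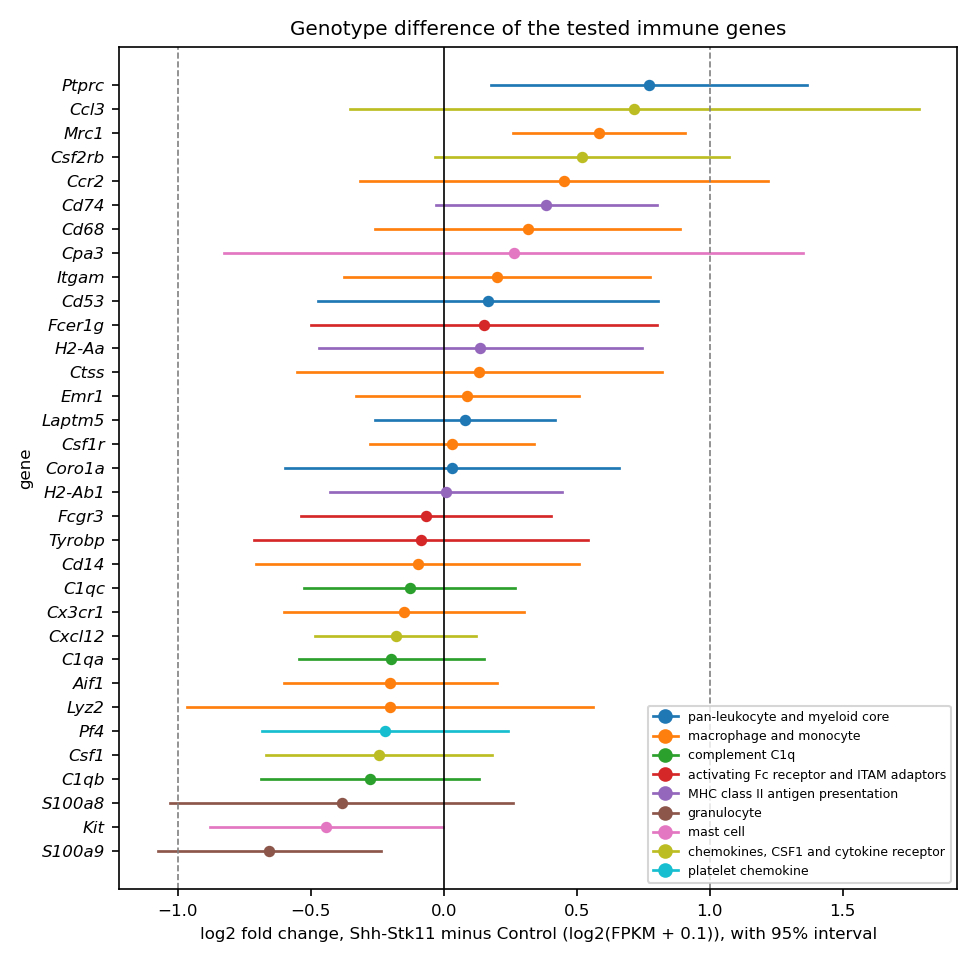
Log2 fold change, Shh-Stk11 minus Control on log2(FPKM + 0.1), of the 33 tested immune and macrophage genes, with 95% limma intervals as bars and dashed lines at a 2-fold difference. Points run from 0.77 for Ptprc to -0.66 for S100a9, and the intervals of 4 genes (Ptprc, Mrc1, S100a9 and Kit) exclude 0 before adjustment.

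The pan-leukocyte genes were Ptprc, Laptm5, Coro1a and Cd53. Ptprc, which encodes the CD45 phosphatase carried by nearly all leukocytes, was at 1.63, 1.33, 2.15 and 3.11 FPKM. Both Shh-Stk11 values lay above both Control values (log2 fold change 0.77, SE 0.25, adjusted p = 0.196 in limma), and the log2 fold change was 0.43 with transcript length and GC trends removed. Coro1a, an actin regulator of hematopoietic cells, was at 18.6, 19.4, 14.4 and 25.99 FPKM. Laptm5, a lysosomal membrane protein of leukocytes, was at 11.9, 12.4, 11.7 and 14.1 FPKM. In both of these genes the Shh-Stk11 libraries enclosed the Control values, 1 below and 1 above. The same held for Cd53, a leukocyte tetraspanin (log2 fold change 0.17), so that Ptprc was the 1 gene of the 4 whose genotypes did not overlap.

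Of the 12 macrophage and monocyte genes, 11 were tested, 7 with a log2 fold change above 0 and 4 below (median 0.09). Mrc1, the mannose receptor of tissue macrophages and of some lymphatic and sinusoidal endothelium, had the smallest adjusted p of all 33 genes. It was at 5.62, 6.08, 9.14 and 8.49 FPKM, that is 5.85 ± 0.323 FPKM in Control against 8.82 ± 0.464 FPKM in Shh-Stk11 (SD, n = 2). Both Shh-Stk11 values lay well above both Control values, and the replicates of each genotype were close to one another (log2 fold change 0.58, SE 0.13, adjusted p = 0.0909 in limma). Leaving out any single library gave a log2 fold change between 0.53 and 0.64, and removing transcript length and GC trends gave 0.40. Ctss, the lysosomal protease cathepsin S, was the second most abundant gene of the group at 34.7, 38.4, 29.0 and 55.4 FPKM, and its genotypes overlapped. Ccr2, the chemokine receptor of monocytes, was at 6.16, 6.31, 5.91 and 12.4 FPKM, and its log2 fold change was 0.45 with all libraries and -0.07 without Shh-Stk11 2.

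The remaining tested genes of the group had smaller differences than Mrc1 and Ccr2. Itgam, the integrin chain CD11b, was at 1.05 ± 0.101 FPKM in Control against 1.22 ± 0.0837 FPKM in Shh-Stk11, with no overlap (log2 fold change 0.20, and 0.11 without Control 2 or with a pseudocount of 1), and Aif1, a calcium-binding protein of macrophages, was at 3.40 ± 0.0836 and 2.95 ± 0.287 FPKM, with both Shh-Stk11 values lower (log2 fold change -0.20, -0.11 without Shh-Stk11 2 and 0.03 with transcript length and GC trends removed). Cd68 (log2 fold change 0.32), a lysosomal glycoprotein, Cx3cr1 (-0.15), the fractalkine receptor, Emr1 (0.09), Cd14 (-0.10), the lipopolysaccharide co-receptor, and Lyz2 (-0.20) overlapped between genotypes. For Csf1r the interval of the log2 fold change ran from -0.28 to 0.34. Cd163, the hemoglobin scavenger receptor, was too low to be tested, at 0.229, 0.398, 0.579 and 0.222 FPKM.

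The genes of C1q, the recognition component of the classical complement pathway, lie next to each other. C1qb was at 14.4, 19.6, 14.3 and 13.4 FPKM and C1qa at 13.4, 16.2, 13.5 and 12.2 FPKM, both highest in Control 2. The ratio of C1qa to C1qb was 0.934, 0.826, 0.947 and 0.912, and that of C1qc to C1qb was 0.853, 0.800, 0.963 and 0.873. All 3 log2 fold changes were below 0, at -0.20 for C1qa, -0.28 for C1qb and -0.13 for C1qc, and none passed the test (smallest adjusted p = 0.509 in limma). With transcript length and GC trends removed from each library, C1qa and C1qc were slightly above 0 (0.04 and 0.08) and C1qb was at -0.055. Without Control 2 the log2 fold change of C1qb was -0.058, and without Control 1 it was -0.50.

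Tyrobp and Fcer1g encode the adaptors through which Fc and related receptors signal, and Fcgr3 is a low-affinity receptor for IgG. Tyrobp was at 48.1, 52.5, 35.4 and 63.2 FPKM and Fcer1g at 31.8, 30.1, 25.3 and 46.7 FPKM. In both, as in Fcgr3, Shh-Stk11 1 held the lowest and Shh-Stk11 2 the highest value, with Control in between. The log2 fold changes were -0.09 for Tyrobp, 0.15 for Fcer1g and -0.07 for Fcgr3, and those of Tyrobp and Fcgr3 were above 0 with transcript length and GC trends removed (0.23 and 0.09). Fcgr3 shares long stretches with Fcgr2b, so its level is uncertain.

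For antigen presentation, Cd74, the invariant chain of MHC class II, was at 13.6, 14.9, 15.97 and 21.7 FPKM. Both Shh-Stk11 values were above both Control values (log2 fold change 0.39, SE 0.17, adjusted p = 0.365 in limma), although leaving out Shh-Stk11 2 gave a log2 fold change of 0.17 and leaving out Shh-Stk11 1 gave 0.61. H2-Aa, an MHC class II alpha chain, was at 3.50, 3.67, 3.04 and 5.13 FPKM. H2-Ab1, its beta-chain partner, differed by 0.01 on the log2 scale. Both chains were below their chaperone Cd74 in every library.

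Both granulocyte genes that could be tested, S100a9 and S100a8, had a log2 fold change below 0, against 58.3% of all genes, and neither passed the test. S100a9 was at 64.3, 47.2, 32.9 and 37.0 FPKM, with both Shh-Stk11 values below both Control values (log2 fold change -0.66, SE 0.17, adjusted p = 0.127 in limma). For S100a9 it was -0.43 without Control 1 and -0.39 with transcript length and GC trends removed. Its partner S100a8 was at 74.3, 64.7, 39.5 and 71.3 FPKM, so that Shh-Stk11 2 lay within the Control range (log2 fold change -0.38, and 0.039 without Shh-Stk11 1). The ratio of S100a8 to S100a9 was 1.16, 1.37, 1.20 and 1.93 and was highest in Shh-Stk11 2. Red blood cell markers were lower in Shh-Stk11 in 7 of 7 tested genes (median log2 fold change -0.52). Of the 7, 1 was called lower, the embryonic globin Hba-x, against 1.29% of all genes. The summed level of these markers was 5696 to 5889 FPKM in Control against 3813 to 4185 FPKM in Shh-Stk11. None of them was at 0 in any library, and their part in the granulocyte values was not tested.

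Kit, the receptor for stem cell factor on mast cells and blood progenitors, was at 22.7, 15.9, 14.2 and 13.8 FPKM. Both Shh-Stk11 values lay below both Control values (log2 fold change -0.44, SE 0.18, adjusted p = 0.325 in limma), although the Control replicates differed from each other by more than the genotypes did. Without Control 1 the log2 fold change of Kit was -0.19, and without Control 2 it was -0.70. Fetal lung endothelium also expresses Kit. The 7 endothelial markers were all lower in Shh-Stk11 on average (median -0.38, 0 called), with sums of 616 to 719 FPKM in Control against 494 to 529 FPKM in Shh-Stk11, and their part in the Kit values was not tested. Cpa3, the mast cell carboxypeptidase, was at 1.22, 2.44, 3.17 and 1.38 FPKM, high in Control 2 and Shh-Stk11 1 and low in the other two libraries. Kit and Cpa3 thus did not follow each other. The heart muscle markers were also highest in Control 2 and Shh-Stk11 1, with sums of 80.4, 193, 109 and 36.3 FPKM, and their part in the Cpa3 values was not tested.

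Among chemokines and growth factors, Cxcl12, the stromal chemokine that retains CXCR4-bearing progenitors, was at 35.7, 38.5, 34.6 and 30.8 FPKM, and Csf1, the macrophage growth factor, at 3.61, 4.06, 2.91 and 3.54 FPKM. Both had lower values in both Shh-Stk11 libraries (log2 fold changes -0.18 and -0.25). These were -0.097 for Cxcl12 without Shh-Stk11 2 and -0.11 for Csf1 without Shh-Stk11 1. The 7 lung mesenchyme markers were lower in Shh-Stk11 too (7 of 7, median -0.21, 0 called), with sums of 701 to 756 FPKM in Control and 577 to 695 FPKM in the Shh-Stk11 libraries, none of them at 0, and their part in the Cxcl12 and Csf1 values was not tested. Ccl3, a chemokine of activated macrophages, was at 0.405, 0.489, 0.5003 and 1.24 FPKM, or 8.59, 8.59, 8.60 and 22.9 estimated reads (log2 fold change 0.72, SE 0.45, adjusted p = 0.512 in limma). Without Shh-Stk11 2 its log2 fold change was 0.14, and without Shh-Stk11 1 it was 1.29. With a pseudocount of 1 it was 0.34. Ccl3 reached the minimum of 0.5 FPKM through the Shh-Stk11 libraries. Csf2rb, the shared beta chain of the receptors for GM-CSF, IL-3 and IL-5, was at 2.97, 2.33, 3.19 and 4.55 FPKM (log2 fold change 0.52, SE 0.23, adjusted p = 0.36 in limma), and its log2 fold change was 0.27 without Shh-Stk11 2. Both genes were higher in both Shh-Stk11 libraries, by a narrow margin in Shh-Stk11 1. Csf2rb has a close copy, Csf2rb2, at 0.430 to 0.626 FPKM. Ccl4, the neighbour and close relative of Ccl3, was below the minimum at 0.0580, 0, 0.286 and 0.465 FPKM, which corresponded to 0.995, 0, 3.98 and 6.97 estimated reads. With the minimum lowered to 0.1 FPKM, Ccl4 entered the test at an adjusted p of 0.0818 in limma. It passed that minimum through the Shh-Stk11 libraries (mean 0.376 FPKM, against 0.029 FPKM in Control), so a difference was built into its entry. At these read numbers the genotypes could not be compared.

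Pf4, the platelet chemokine, which fetal macrophages also express, was at 20.8, 28.8, 23.2 and 18.9 FPKM, highest in Control 2 as were the C1q genes (log2 fold change -0.22, and 0.07 with transcript length and GC trends removed).

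The Shh-Stk11 replicates stood further apart in these genes than the Control replicates did. Shh-Stk11 2 was above Shh-Stk11 1 in 22 of the 33 tested genes (66.7%, against 53.5% of all genes), by a median of 0.38 on the log2 scale (all genes 0.02). The difference was at least 0.5 in 15 of the 33 (45.5%, against 5.45% of all genes). Of the 4 libraries, Shh-Stk11 2 had the highest value in 18 of the 33 (54.5%, against 19.4% of all genes). The median absolute difference between replicates was 0.44 in Shh-Stk11 and 0.17 in Control, whereas over all genes it was 0.16 and 0.18. The Control replicates differed by 0.5 or more in 2 genes, Cpa3 and Kit. These differences are between single libraries and were not tested, and the step of 0.5 was chosen after the values were seen.

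The difference between the Shh-Stk11 replicates was not the same for every gene. At 0.5 or more stood Ccl3 (1.16), the monocyte receptor Ccr2 (1.05), Lyz2 (1.01), Ctss (0.93), Fcer1g (0.88), S100a8 (0.85), Coro1a (0.84), Tyrobp (0.83), Cd53 (0.82), Cd68 (0.74), H2-Aa (0.73), Cd14 (0.69), Fcgr3 (0.55), Ptprc (0.51) and Csf2rb (0.50). The 11 genes below 0 were Cpa3 (-1.15), Cx3cr1 (-0.41), Pf4 (-0.30), C1qc (-0.23), Aif1 (-0.19), Cxcl12 (-0.17), C1qa (-0.15), Mrc1 (-0.11), C1qb (-0.09), Kit (-0.04) and Csf1r (-0.01). Several of these lay within the middle 50% of all genes, between -0.14 and 0.18. Among the 11 macrophage and monocyte genes tested, Shh-Stk11 2 was above Shh-Stk11 1 in 7. The ratio of Ccr2 to Cx3cr1 was 1.27, 1.14, 1.10 and 3.08, and that of Tyrobp to C1qb was 3.34, 2.68, 2.48 and 4.73, so that both stood out in Shh-Stk11 2. Sfpi1, the older symbol of the absent Spi1, was at 7.83, 6.55, 5.32 and 9.58 FPKM and showed the same order of libraries as Fcer1g and Fcgr3. With transcript length and GC trends removed, the median difference was 0.32. Shh-Stk11 2 was also the male library, and the part of sex was not tested.

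**Figure D3:**
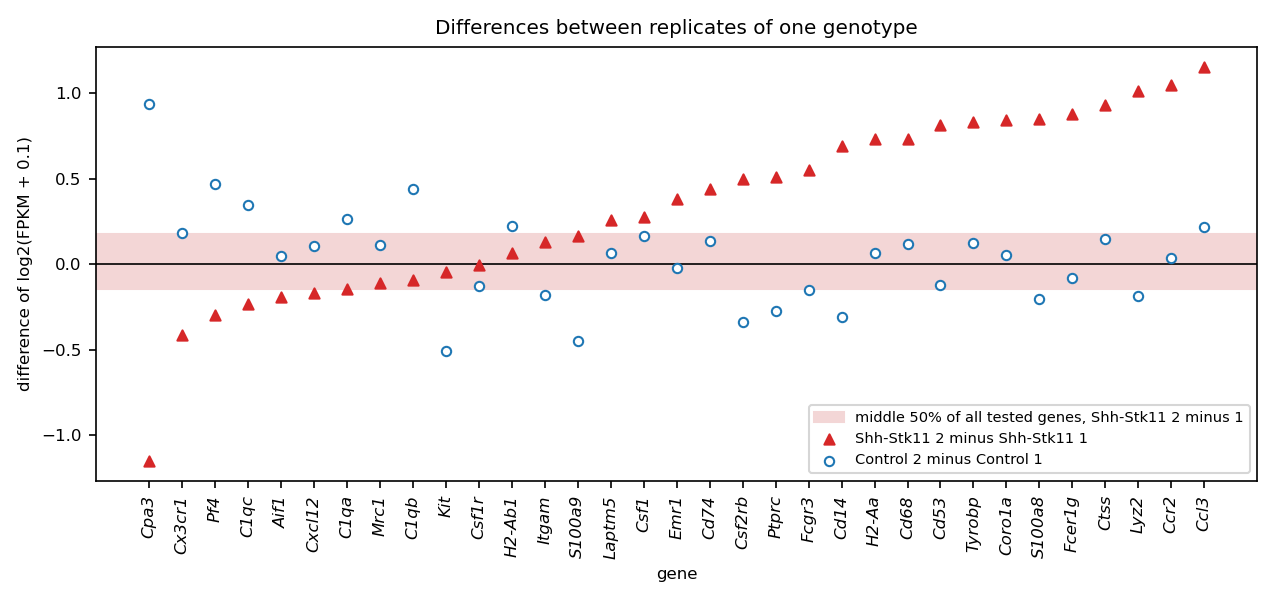
Difference between replicates of the same genotype on log2(FPKM + 0.1) for the 33 tested genes, ordered by the Shh-Stk11 difference. Red triangles are Shh-Stk11 2 minus Shh-Stk11 1, blue circles are Control 2 minus Control 1, and the band holds the middle 50% of all tested genes for Shh-Stk11. The triangles run from -1.15 for Cpa3 to 1.16 for Ccl3, with 15 genes at 0.5 or more, whereas the circles are nearer to 0 in most genes.

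The genotype comparison depended on which of these libraries entered it. Without Shh-Stk11 1, 12 of the 33 genes (36.4%) had an unadjusted p under 0.05, against 10.7% of all genes in the same fit, and 11 of them were higher in Shh-Stk11, against 5.97% of all genes. The median log2 fold change was 0.25. Without Shh-Stk11 2, 5 genes (15.2%) had an unadjusted p under 0.05, against 13.3% of all genes, and 4 of them were lower, against 6.86% of all genes. The median was then -0.10. None of the 33 passed the adjusted threshold in either case.

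A further 163 immune genes were listed as other members of the same cell types and pathways, of which 162 were in the table and 124 were tested. One of the 124, Hdc, passed the test, against 2.27% of all genes. Of the 124, 64 had a log2 fold change above 0 and 60 below (median 0.04), and 15 (12.1%) had an unadjusted p under 0.05, against 15.2% of all genes, 6 higher (all genes 8.04%) and 9 lower (7.18%). These include Marco and Prtn3, which reached the minimum level in 1 genotype only. Leaving out Shh-Stk11 2 gave a median of -0.19, and leaving out Shh-Stk11 1 gave 0.25. Hdc, histidine decarboxylase, which makes histamine in mast cells, basophils and some neutrophils, was at 12.7, 12.3, 4.74 and 4.33 FPKM. Both Shh-Stk11 libraries were far below both Control libraries and the replicates were close (log2 fold change -1.44, SE 0.13, adjusted p = 0.00566 in limma). Its adjusted p was 0.0934 and 0.0916 without Control 1 and Control 2 and 0.0638 with the replicate number as a block in limma. The order of libraries was mixed among proteases of these cells. The basophil gene Mcpt8 was lower in both Shh-Stk11 libraries, at 0.665, 1.20, 0.564 and 0.286 FPKM, as was Prss34, at 0.312, 0.690, 0.160 and 0.238 FPKM. Among all genes, 27.6% were lower in both, and Mcpt8 and Prss34 were picked after their values were seen. Mcpt8 reached the minimum of 0.5 FPKM through the Control libraries (mean 0.933 FPKM, against 0.425 FPKM in Shh-Stk11). A difference was thus built into its entry. Prss34 was below the minimum and was not tested. The mast cell gene Cma1 was at 1.27, 3.75, 4.55 and 2.28 FPKM and Tpsb2 at 1.13, 3.38, 4.19 and 2.53 FPKM, the same order of libraries as Cpa3.

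Of 25 other pan-leukocyte genes, 18 had a log2 fold change above 0 (median 0.17), against 41.7% of all genes. Shh-Stk11 2 was above Shh-Stk11 1 in all 25 and was the highest library in 23, against 53.5% and 19.4% of all genes. Among them Ikzf1, a lymphoid and myeloid transcription factor, had a log2 fold change of 0.53 (adjusted p = 0.309 in limma), or 0.34 without Shh-Stk11 2. Of 35 other macrophage genes, 21 were above 0 (median 0.11) and Shh-Stk11 2 exceeded Shh-Stk11 1 in 29. Other granulocyte genes were below 0 in 7 of 10 (median -0.29) and other platelet genes in 8 of 10 (median -0.26), against 58.3% of all genes below 0. The granulocyte list also held Ly6c1 (0.20) and Ly6c2 (0.76), which are not confined to granulocytes. The red blood cell, endothelium and mesenchyme markers given above were lower in 7 of 7 genes each, whereas the lung epithelium markers were higher in 6 of 7, and the part of none of them in the values of genes higher or lower in Shh-Stk11 was tested. The antimicrobial peptide gene Camp was at 3.29, 2.59, 1.32 and 1.15 FPKM (log2 fold change -1.18, adjusted p = 0.0518 in limma). Camp passed in 2 of 13 other settings, at a pseudocount of 0.01 (adjusted p = 0.0435 in limma) and with eBayes without the trend (0.045). With the replicate block its adjusted p was 0.156 in limma, and with no filter it was 0.138. Ly6c2, a surface antigen of inflammatory monocytes, was at 9.46, 9.91, 14.2 and 19.0 FPKM (log2 fold change 0.76, adjusted p = 0.0823 in limma). The chemokine Ccl6 was at 12.2, 9.73, 18.8 and 40.5 FPKM (log2 fold change 1.33, adjusted p = 0.114 in limma). For Ccl6 the log2 fold change was 1.88 without Shh-Stk11 1, where it passed the threshold (adjusted p = 0.0114 in limma), and 0.78 without Shh-Stk11 2 (adjusted p = 0.161 in limma). The genotypes did not overlap in these 3 genes, as in 46.8% of all genes, and choice by an unadjusted p under 0.05 favours such genes.

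Marco, a scavenger receptor of macrophages, was at 0.339, 0.107, 0.473 and 1.15 FPKM and Tmem119, a membrane protein of microglia and of bone-forming cells, at 17.8, 17.2, 13.6 and 13.9 FPKM, and neither passed the test. Marco reached the minimum of 0.5 FPKM through the Shh-Stk11 libraries, so a difference was built into its entry. Tmem119 had a log2 fold change of -0.34 (adjusted p = 0.229 in limma), or -0.18 with transcript length and GC trends removed. The neutrophil protease Prtn3 was at 1.03, 0.622, 0.340 and 0.394 FPKM and reached the minimum through the Control libraries. Log2 fold changes of 5 further genes with an unadjusted p under 0.05 were -0.69 for the granzyme Gzma, -0.81 and -0.78 for the platelet receptors Gp9 and Clec1b, 0.59 for the platelet kinase substrate Plek and -0.32 for the adhesion molecule Vcam1. Their genotypes did not overlap, as in 46.8% of all genes, and the choice by p favours such genes. With a pseudocount of 1 the values were -0.45 for Gzma, -0.51 for Gp9 and -0.48 for Clec1b. Plek was at 0.31 without Shh-Stk11 2, and Vcam1 at -0.52 with transcript length and GC trends removed. Most abundant in their lists were Arhgdib (67.7 to 90.7 FPKM), Lyve1 (50.3 to 71.9), B2m (239 to 299), Ly6c1 (31.3 to 60.3), Srgn (30.2 to 39.96), Id2 (160 to 218) and Nfkbia (61.7 to 106), several of which other lung cells also express.

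Ligands and partner receptors of the chemokine and growth factor genes were described in the same way. Of 15 tested, 8 were above 0 and 7 below (median 0.07). Kitl, the ligand of KIT, was at 16.4, 16.7, 23.9 and 21.2 FPKM, higher in both Shh-Stk11 libraries (log2 fold change 0.44, adjusted p = 0.148 in limma), the opposite direction to Kit. With transcript length and GC trends removed the log2 fold change of Kitl was 0.10 (adjusted p = 0.716 in limma). Cxcr7, the scavenging receptor for CXCL12, was at 26.01, 20.98, 16.8 and 17.1 FPKM (log2 fold change -0.46, adjusted p = 0.184 in limma, or -0.31 without Control 1), and Cxcr4, its signaling receptor, was at 26.8, 23.9, 23.8 and 22.2 FPKM. Lists for antigen presentation (8 tested, median 0.07), mast cells and basophils (6, -0.28), lymphoid cells (8, -0.24) and inflammatory cytokines and receptors (7, -0.06) held no other gene past the threshold. Thymus and T cell markers were tested in 1 of 9 genes, the others being too low.

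**Figure D4:**
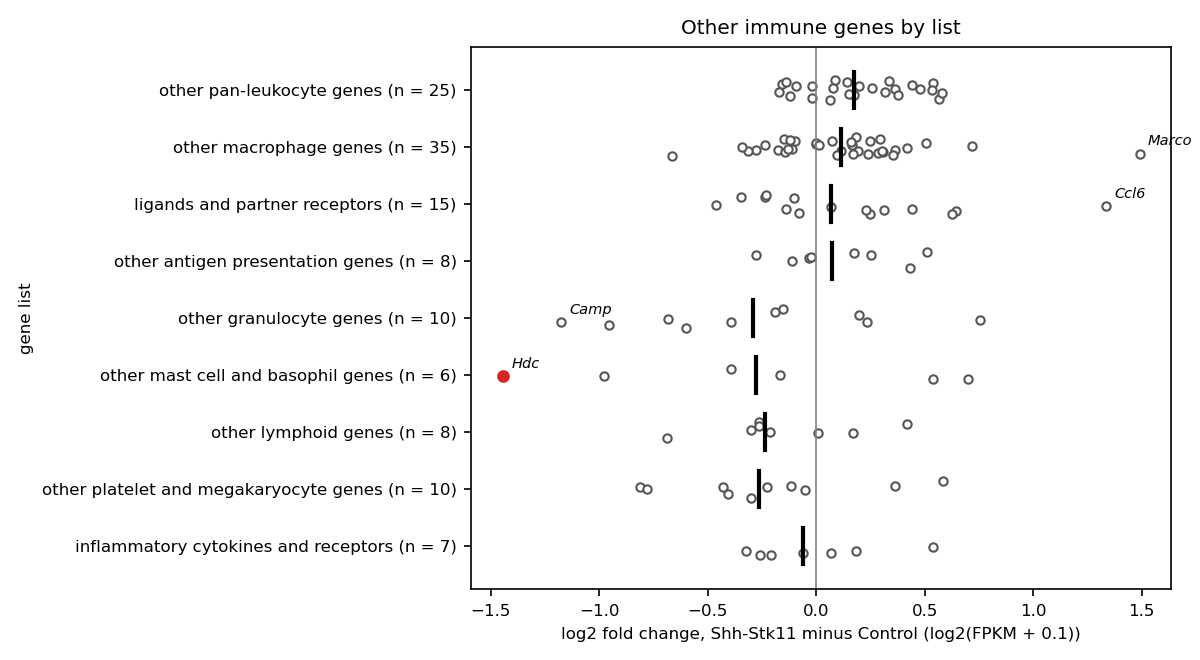
Log2 fold change, Shh-Stk11 minus Control on log2(FPKM + 0.1), of 124 other immune genes in 9 lists. Each circle is a gene, black bars are list medians, and the filled red circle is Hdc at -1.44, the gene with an adjusted p below 0.05, whereas Camp, Ccl6 and Marco are labelled for the size of their difference and did not pass, and Marco reached the minimum level in Shh-Stk11 only. List medians lie between -0.29 for granulocyte genes and 0.17 for pan-leukocyte genes.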

How the data were processed

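Total RNA of whole E16.5 lungs was sequenced as single-end reads, per the methods of the study. The authors deposited 1 table of FPKM values, a column per library. The submitters' processing notes named TopHat2 2.0.13 and Cufflinks 2.2.1, and the builds GRCm38 and mm9 without saying which was used, and the annotation was not given in the sources used here. All value columns matched a label, and the depth was estimated from low values: of 1721 genes that all libraries detected and placed below 0.3 FPKM, 81.3% were whole multiples of a smallest step within a tolerance of 1%, scaled to reads with 202 single-transcript genes. Read numbers of single genes are estimates of the same kind.

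The 40 members and all gene lists were chosen with earlier results of these data known. Genotypes were compared with limma 3.58.1 in R 4.3.3 on log2(FPKM + 0.1), for genes whose mean reached 0.5 FPKM, with genotype as the only term, a variance trend (2 residual and 4.48 prior degrees of freedom) and two-sided p-values with Benjamini-Hochberg adjustment across the 13770 genes. Replicates were separate samples in the labels, and p-values measure the spread between them, which may be technical. Every member found is named; values in each library are given for the 2 most abundant of each role group, for those with an unadjusted p under 0.05 and for those without overlap and with a log2 fold change of at least 0.5 either way. Other immune genes are named for an unadjusted p under 0.05 or for abundance; Cma1, Tpsb2, Mcpt8, Prss34, Lyz1, Csf2rb2, Csf1r, Emr1, Cd163, Ccl4, Ccr2, Sfpi1 and the ratios were added after their values were seen. Alternatives were other pseudocounts, filters, scalings and variance settings, a replicate block, removal of length and GC trends, and leaving out each library.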

Additional observations from a re-analysis of the deposited data

How the results depend on the processing

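None of the tested immune genes passed an adjusted p of 0.05 under any alternative, with a smallest adjusted p of 0.0791 among the planned ones with limma (Mrc1, pseudocount 0.01). The log2 fold changes of Cd14 (0.060), Aif1 (0.027), C1qa (0.039), C1qc (0.083), Tyrobp (0.23), Fcgr3 (0.089) and Pf4 (0.068) changed sign when length and GC trends were removed, and the cause was not tested. Over all genes, 135 rose and 178 fell, against 20 and 41 with no filter, where more genes of low level entered the test, and against 15 to 64 and 23 to 127 without 1 library. With median-ratio scaling 134 rose and 154 fell. Replicate numbers in the labels are only numbers: same-numbered libraries did not deviate together (correlation -0.11), and with the replicate block 6 genes rose and 7 fell, 5 members (15.2%, against 13.8% of all genes) had an unadjusted p under 0.05, and 0 other immune genes were called lower. With the crossed pairing, added after seeing the data, 360 rose and 315 fell (2.29%) over all genes. Of the 124 other immune genes, 2 were then called higher and 3 lower. Other immune genes called lower numbered 2 of 124 with pseudocount 0.01 (against 1.41% of all genes) and 2 with eBayes without the trend (1.54%).

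Leaving out 1 library moved the members' median log2 fold change from -0.10 to 0.25 and that of the other immune genes from -0.19 to 0.25. Ranges of the log2 fold change that crossed 0 when 1 library was left out were -0.45 to 0.25 for Cd14, -0.34 to 0.21 for Fcgr3, -0.11 to 0.12 for H2-Ab1, -0.31 to 0.84 for Cpa3, -0.031 to 0.093 for Csf1r, -0.30 to 0.045 for C1qc, -0.46 to 0.013 for Pf4, -0.71 to 0.30 for Lyz2, -0.50 to 0.33 for Tyrobp, -0.81 to 0.039 for S100a8, -0.052 to 0.21 for Laptm5, -0.39 to 0.45 for Coro1a, -0.24 to 0.57 for Cd53, -0.052 to 0.68 for Cd68, -0.10 to 0.28 for Emr1, -0.36 to 0.055 for Cx3cr1, -0.33 to 0.60 for Ctss, -0.075 to 0.98 for Ccr2, -0.29 to 0.59 for Fcer1g and -0.23 to 0.50 for H2-Aa. Ptprc, Mrc1, S100a9 and Kit kept their direction under each alternative that tested them, and Ptprc was not tested with a minimum of 5 FPKM. Stk11 kept its call in 2 of 14 other settings (pseudocount 0.01 and a minimum of 5 FPKM) and with the crossed pairing, with adjusted p between 0.0367 and 0.183 in limma. Where a genotype was left with 1 library, that library was assumed to vary like the other genotype. Depth was estimated rather than given, and genes under about 5 estimated reads, such as Mpo and Elane, could not be compared.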
